A study of Mus musculus with 6 samples.

Results

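The genes examined were 10 genes for secreted acute-phase and antimicrobial proteins, Lcn2, Slpi, Saa3, Saa1, Saa2, Hp, Orm1, Ptx3, Serpina3n and Pglyrp1, out of the 45706 genes in the table. They were picked by symbol, with the difference between DKK1-treated and control cells in these same libraries already known, so their response to DKK1 is described below and is not tested as a list. The cells were primary fibroblasts grown out of the digested lungs of wild-type mice. After 7 days in culture they were detached and purified, and 3 control and 3 DKK1-treated samples were taken for total RNA sequencing. The treated cells received recombinant mouse DKK1 for 24 hours at 30 ng/ml. DKK1, or Dickkopf-1, is an inhibitor that cells release and that blocks Wnt signalling at the co-receptors LRP5 and LRP6. The control libraries are labelled control and carry the code UNT, which the labels do not spell out. What the control cells received, the strain, age and sex of the mice, and whether the samples came from separate animals are not given in the sources used here, so p-values measure only the spread between these samples.

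Acute-phase proteins are secreted in large amounts during infection or injury. The liver makes most of those in blood, under the control of interleukin-6 and interleukin-1 acting through STAT3, C/EBP and NF-kB factors, and other tissues make some of them locally. The genes fall into groups by role. Saa1, Saa2 and Saa3 encode serum amyloid A proteins, Hp encodes haptoglobin, which binds free haemoglobin, and Orm1 encodes orosomucoid, a plasma carrier protein. Lcn2 encodes lipocalin-2, which starves bacteria of iron by binding their siderophores, and Pglyrp1 encodes a protein that binds bacterial peptidoglycan. Ptx3 encodes pentraxin-3, a soluble pattern recognition molecule that also takes part in matrix assembly. Slpi and Serpina3n encode inhibitors of leukocyte serine proteases.

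Library totals ranged from 22565917 to 34727102 counts. The fibroblast markers of the culture were abundant, with 8 of 8 detected and a summed level of 9960 to 12086 CPM (counts per 1000000 of the library total). The cultures also held transcripts of other cells. The 10 macrophage markers were all detected and summed to 415 and 482 CPM in control replicates 1 and 2, 838 CPM in control replicate 3, 465 and 507 CPM in DKK1 replicates 1 and 2, and 887 CPM in DKK1 replicate 3. Most of each sum was Lyz2, with 340, 402 and 696 CPM in the control libraries and 370, 412 and 722 CPM in the DKK1 libraries. Markers of lung epithelium, mesothelium and endothelium were also highest in the samples numbered 3 of both groups, at 41.9 to 64.4 CPM in each list against 12.9 to 31.0 CPM in the other libraries. Of the 10 neutrophil markers, Ly6g, Elane, Retnlg and Ngp had 0 counts in every library. In such bulk samples, fewer cells of a type and less RNA per cell cannot be told apart.

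Of the 10 genes, 6 had enough counts to be tested and 4 did not. All 6 tested genes had a higher mean level in the DKK1 libraries. Their log2 fold changes had a median of 2.20, against -0.00091 over all 14635 tested genes. In edgeR's quasi-likelihood test over all genes, where a gene is called at a Benjamini-Hochberg adjusted p under 0.05, 2 of the 6 (Lcn2 and Slpi) were called higher, against 0.697% of all tested genes. With the replicate number of the labels as a block in the model, 6 of 6 were called higher, against 4.96% of all tested genes. In 5 of the 6, the exception being Serpina3n, all DKK1 libraries lay above all control libraries, as they did in 9.40% of all tested genes. With both samples numbered 3 left out, 4 of the 6 (Hp, Lcn2, Saa3 and Slpi) were called higher without the block, against 0.800% of all tested genes. These counts describe genes that were chosen with this difference in view, and nothing further is read from them.

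**Figure D1:**
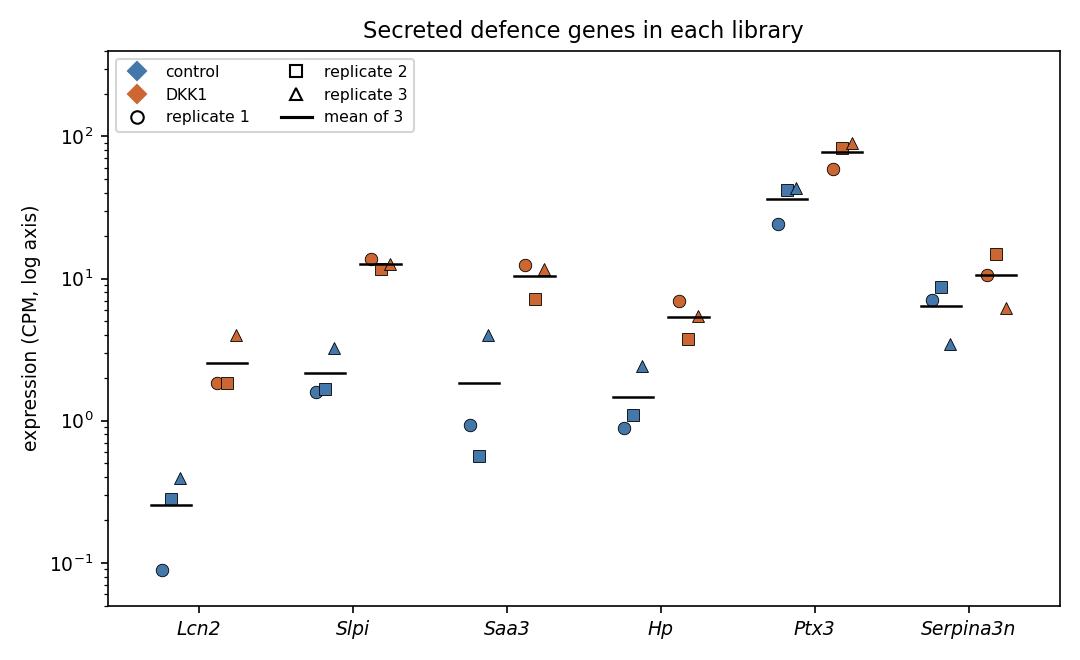
Expression of the 6 tested genes in each library, in CPM on a log axis, with control in blue and DKK1 in orange. Symbols mark the replicate number and lines the mean of 3 libraries. Control replicate 3 stands above the other controls for Saa3, Slpi and Hp, and the groups overlap only for Serpina3n.

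The serum amyloid A and haptoglobin genes come first. Saa3 (ENSMUSG00000040026, chr7:46711998-46715700, minus strand, GRCm38) measured 0.931, 0.566 and 4.02 CPM in control replicates 1, 2 and 3, and 12.5, 7.23 and 11.6 CPM in DKK1 replicates 1, 2 and 3. The groups did not overlap, and control replicate 3 stood far above the other controls, which gave the control group a coefficient of variation of 103% against 27.0% with DKK1. The log2 fold change was 2.54 (SE 0.54) and did not pass the threshold in edgeR without the block. It passed with the block, at 2.60 (SE 0.29), and without it when no low-count filter was used. Leaving out control replicate 3 moved it to 3.81, past the threshold in that fit too. Within the same-numbered libraries the Saa3 ratio was 13.4 and 12.8 for numbers 1 and 2 and 2.89 for number 3.

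Hp (ENSMUSG00000031722, chr8:109575128-109579172, minus strand) had its highest control value in replicate 3 as well. It measured 0.886, 1.10 and 2.43 CPM in the control libraries and 6.91, 3.74 and 5.42 CPM in the DKK1 libraries. All DKK1 libraries were above all controls. The log2 fold change was 1.87 (SE 0.37), not called in edgeR without the block and called with it (1.87, SE 0.24). DESeq2 without the block called Hp, as did edgeR with no low-count filter. Without control replicate 3 it was 2.40 and passed without the block.

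The liver-type relatives were not found. Saa1 (chr7:46740497-46742980, minus strand) and Saa2 (chr7:46751790-46754313, plus strand), which lie in the same cluster of chromosome 7 as Saa3, had 0 counts in all 6 libraries. A count of 0 allows up to 3 counts, or 0.133 CPM in the library with the fewest counts and 0.0864 CPM in that with the most, and this limit covers counting error only. Their longest annotated transcripts are 94.4% identical to each other over 606 aligned bases, and Saa1 and Saa3 are 83.8% identical over 359 bases, with a longest identical run of 58 bases. All Saa3 counts were whole numbers to within 0.001 in every library. Orm1 (chr4:63344560-63348163) had 3 counts in control replicate 2 and 0 in the other libraries, which does not exceed the floor of 3 counts, so no fold is given.

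Among the antimicrobial proteins, Lcn2 (ENSMUSG00000026822, chr2:32384633-32388252, minus strand) was the least abundant of the 6 and had the highest fold change. It measured 0.0886, 0.283 and 0.397 CPM in the control libraries, from 2, 8 and 9 counts, and 1.85, 1.84 and 3.99 CPM in the DKK1 libraries, from 53, 64 and 92 counts. The lowest DKK1 library was well above the highest control. The log2 fold change was 3.26 (SE 0.50), and 3.26 (SE 0.31) with the block. The ratio in the libraries numbered 1 was 20.9, but with 2 control counts its 95% counting interval (exact Clopper-Pearson on the 2 counts) ran from 5.50 to 177. The ratios for numbers 2 and 3 were 6.51 and 10.0, with intervals of 3.11 to 15.7 and 5.07 to 22.7. The call of Lcn2 without the block was kept in only 2 of the 6 fits that each left out 1 library, those without control replicate 3 (log2 fold change 3.65) and without DKK1 replicate 3 (2.82). Pglyrp1 (chr7:18871331-18890459) had at most 1 count in any library and 4 counts in all, so it was not detectable at this depth.

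Lipocalin-2 is best known from neutrophil granules. In these libraries the sum of the 10 neutrophil markers was 1.02 to 1.77 CPM in control and 2.79 to 4.16 CPM with DKK1, and most of it was S100a8, which had 18 to 38 counts in control and 89 to 93 with DKK1. Elane, Ngp, Retnlg and Ly6g had 0 counts in every library. The rest of the list had few counts, in both directions. Csf3r had 4, 3 and 1 counts in control and 4, 2 and 0 with DKK1, and Cxcr2 had 1, 0 and 1 in control and 0 with DKK1. Among granule genes, Camp, the cathelicidin gene, had 0 in each control library and 4, 2 and 1 with DKK1, Mpo had 0, 1 and 0 in control and 1.39, 2 and 2 with DKK1, and Prtn3, which is in the list of partners, had 1, 1 and 2 in control and 8, 8.24 and 5 with DKK1. Ltf, the lactoferrin gene, had at most 2 counts in any library. The part of neutrophil transcripts in the Lcn2 difference was not tested.

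Slpi (ENSMUSG00000017002, chr2:164354070-164389095, minus strand) was the steadiest of the genes after treatment. Its levels were 1.60, 1.66 and 3.22 CPM in the control libraries and 13.8, 11.7 and 12.6 CPM in the DKK1 libraries, a coefficient of variation of 42.6% and 8.53%. Control replicate 3 was again the highest control, and the groups were well apart. The log2 fold change was 2.56 (SE 0.22), and Slpi was the one gene of the set called in all 17 alternatives run for it. The ratio within same-numbered libraries was 8.66, 7.01 and 3.90. The counting interval for number 3 (3.01 to 5.12) did not reach that for number 1 (6.15 to 12.5), and these intervals cover counting error only.

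Serpina3n (ENSMUSG00000021091, chr12:104406729-104414329, plus strand), the other protease inhibitor, was lowest in the libraries numbered 3. It measured 7.05, 8.67 and 3.49 CPM in the control libraries and 10.5, 14.8 and 6.25 CPM in the DKK1 libraries. The groups overlapped, since DKK1 replicate 3 lay below the controls numbered 1 and 2. The log2 fold change of 0.72 (SE 0.36) did not pass the threshold over unpaired samples and passed with the block (0.72, SE 0.09), where the ratios were 1.50, 1.71 and 1.79. It had a count that was not whole in 1 library, and its transcript is 80.4% to 87.5% identical to those of the 10 neighbouring cluster genes over the aligned parts, with identical runs of up to 100 bases.

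Ptx3 (ENSMUSG00000027832, chr3:66219910-66225805, plus strand) was by far the most abundant gene of the set and made up 69.7%, 77.1% and 76.1% of the summed CPM of the 10 genes in the control libraries and 56.5%, 67.9% and 69.2% in the DKK1 libraries. It measured 24.3, 41.8 and 43.2 CPM in the control libraries and 59.2, 83.2 and 89.5 CPM in the DKK1 libraries. All DKK1 libraries were above all controls. The log2 fold change was 1.07 (SE 0.21), not called in edgeR without the block and called with it (1.08, SE 0.05). DESeq2 without the block called Ptx3, as did edgeR with no low-count filter. The 3 same-numbered ratios were 2.43, 1.99 and 2.07. The counting interval for number 1 (2.21 to 2.68) did not reach that for number 2 (1.86 to 2.13), and these intervals cover counting error only. Ptx3 overlaps Veph1, a gene on the opposite strand, which had 6 to 14 counts per library against 549 to 2890 for Ptx3.

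**Figure D2:**
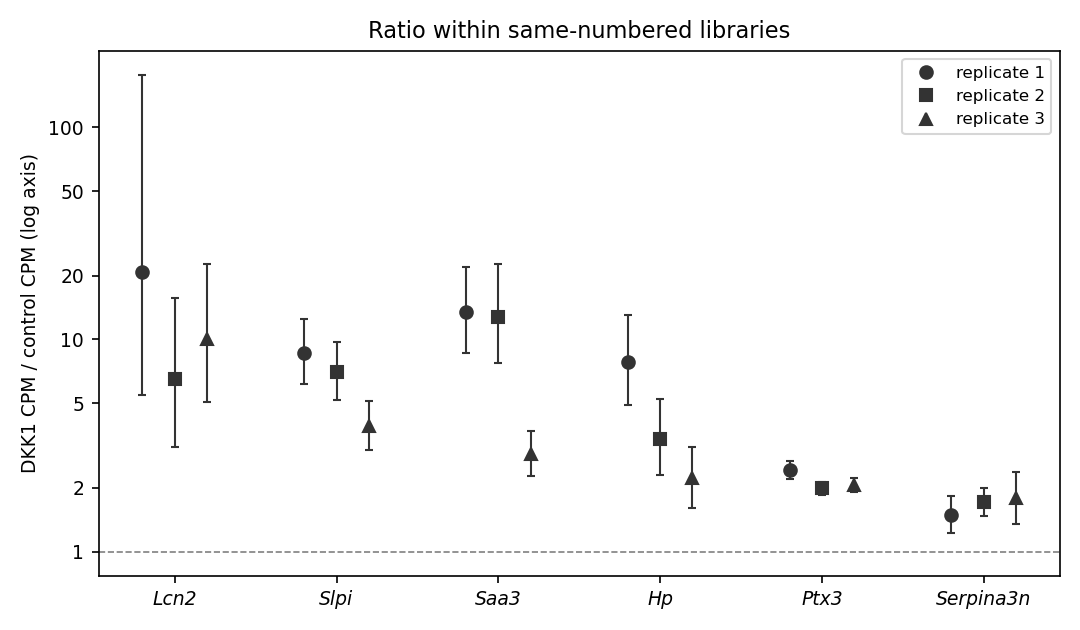
Ratio of DKK1 to control CPM for each replicate number, on a log axis, with the 95% counting interval as the bar. All plotted ratios are above 1, and the ratio for number 3 is the lowest for Slpi, Saa3 and Hp. The ratios of Ptx3 and Serpina3n differ less between numbers than those of the other genes.

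Levels were also compared between the genes as CPM per kilobase of the longest annotated transcript. In control cells the order was Ptx3 (19.2 ± 5.54, SD, n = 3), Saa3 (3.31 ± 3.42), Serpina3n (3.10 ± 1.28), Slpi (2.47 ± 1.05), Hp (1.09 ± 0.622) and Lcn2 (0.187 ± 0.114). Saa3 measured 1.68, 1.02 and 7.24 in control replicates 1, 2 and 3, so its control mean and its place in the order rested on replicate 3. Saa3 overlapped with Serpina3n and Serpina3n with Slpi, while Ptx3, Hp and Lcn2 did not overlap with their neighbours in this order. For Hp this was narrow, with a highest value of 1.81 against a lowest value of 1.82 for Slpi. Hp overlapped with Saa3 (lowest value 1.02) and Serpina3n (lowest value 1.69), so it was not a separate lower group. With DKK1 the order was Ptx3 (40.7 ± 8.43), Saa3 (18.8 ± 5.08), Slpi (14.5 ± 1.23), Serpina3n (5.11 ± 2.08), Hp (3.98 ± 1.18) and Lcn2 (1.86 ± 0.901). Here Saa3 and Slpi overlapped with each other and lay clear of both Ptx3 above and Serpina3n below, while Serpina3n, Hp and Lcn2 formed a chain of overlapping neighbours. With the median transcript length in place of the longest, Slpi moved above Saa3 in DKK1-treated cells (21.1 against 18.8) and above both Saa3 and Serpina3n in control cells (3.59 against 3.31 and 3.10). Per kilobase, Saa3 and Slpi stood above 37.4% and 32.5% of all tested genes in control cells and above 75.6% and 69.9% in DKK1-treated cells, while Lcn2 went from above 4.34% to above 28.5%.

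How the genes varied between the replicate numbers is a measure that the choice of genes did not use. An F-test of the replicate number, with the treatment in the model, called 3 of the 6 tested genes, against 12.9% of all tested genes (edgeR, Benjamini-Hochberg). One of the 3, Lcn2, had 2 to 9 counts in control and passed the low-count filter through its DKK1 libraries; with at least 10 counts required in every sample, 5 genes were tested and 2 were called, against 14.6% of all genes tested there. Ptx3 was lower in the samples numbered 1 of both groups (adjusted p = 1.23e-05), with number 2 above number 1 by 0.60 and number 3 by 0.67 on the log2 scale. Serpina3n was lowest in the samples numbered 3 of both groups, with a log2 difference from number 1 of -0.87 (adjusted p = 2.99e-05). Lcn2 was highest in the samples numbered 3 of both groups, 1.19 above number 1 on the log2 scale (adjusted p = 0.0449), a call that DESeq2 did not make (adjusted p = 0.784). Slpi (adjusted p = 0.504), Hp (0.192) and Saa3 (0.0730) did not pass. The sums of macrophage, epithelial, mesothelial and endothelial markers were also highest in the samples numbered 3, and their part in these differences was not tested.

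The bases before the starts of these genes are shown so that the letters they share and those they lack can be seen. RefSeq starts on GRCm38.p6 were available for 8 of the 10 genes (all but Hp and Orm1). The 250 bases before the start are given 5′ to 3′ on the gene's strand for the detected genes and for Saa1, which had no counts. Capitals mark the letters TTNNGCAA, a form bound by C/EBP factors, and an NF-kB motif, GGGA and CC separated by any 4 bases, on either strand.
Lcn2, chr2:32387740-32387989, minus strand: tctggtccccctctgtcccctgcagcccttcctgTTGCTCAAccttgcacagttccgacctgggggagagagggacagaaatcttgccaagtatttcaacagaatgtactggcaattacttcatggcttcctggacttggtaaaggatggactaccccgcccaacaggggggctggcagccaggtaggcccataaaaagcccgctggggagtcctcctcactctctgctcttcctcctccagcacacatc
Slpi, chr2:164356508-164356757, minus strand: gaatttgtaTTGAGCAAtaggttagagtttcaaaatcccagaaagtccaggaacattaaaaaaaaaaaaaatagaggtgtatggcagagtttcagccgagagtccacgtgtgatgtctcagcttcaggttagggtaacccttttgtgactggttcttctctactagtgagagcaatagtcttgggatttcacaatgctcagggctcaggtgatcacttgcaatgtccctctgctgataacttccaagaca
Saa3, chr7:46715677-46715926, minus strand: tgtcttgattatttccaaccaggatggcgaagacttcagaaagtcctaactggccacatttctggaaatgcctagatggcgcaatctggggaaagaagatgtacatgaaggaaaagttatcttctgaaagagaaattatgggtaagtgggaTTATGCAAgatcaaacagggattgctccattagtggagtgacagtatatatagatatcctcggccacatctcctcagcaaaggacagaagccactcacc
Ptx3, chr3:66219637-66219886, plus strand: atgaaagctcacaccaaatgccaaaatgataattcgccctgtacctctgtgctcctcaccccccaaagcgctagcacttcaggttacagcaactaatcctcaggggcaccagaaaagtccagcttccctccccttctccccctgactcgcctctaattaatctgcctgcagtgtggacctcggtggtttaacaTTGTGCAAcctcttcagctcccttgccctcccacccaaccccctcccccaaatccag
Serpina3n, chr12:104406458-104406707, plus strand: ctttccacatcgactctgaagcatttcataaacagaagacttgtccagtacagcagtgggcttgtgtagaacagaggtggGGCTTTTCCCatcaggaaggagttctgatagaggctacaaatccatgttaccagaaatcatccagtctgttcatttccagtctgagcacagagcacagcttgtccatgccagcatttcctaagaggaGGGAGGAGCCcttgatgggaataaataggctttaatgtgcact
Saa1, chr7:46742981-46743230, minus strand: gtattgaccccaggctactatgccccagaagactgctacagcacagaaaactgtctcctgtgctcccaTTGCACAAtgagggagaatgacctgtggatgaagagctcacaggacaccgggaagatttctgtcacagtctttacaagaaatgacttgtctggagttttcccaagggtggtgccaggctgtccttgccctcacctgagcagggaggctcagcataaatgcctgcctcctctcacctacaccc

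The letters TTNNGCAA were found once each before Lcn2, Slpi, Saa3, Ptx3, Saa1 and Saa2, that is in 6 of 8 genes, against 9.09% of 21263 protein-coding promoters of the same 250 bases. Counted from the start, they lay at -99 to -92 in Saa3, at -57 to -50 in Ptx3, at -216 to -209 in Lcn2 and at -241 to -234 in Slpi. The sites read TTATGCAA in Saa3, TTGTGCAA in Ptx3 and TTGAGCAA in Slpi on the gene's strand, and TTGCTCAA in Lcn2, where the match is on the other strand. Saa1 and Saa2 share the site TTGCACAA, at nearly the same position in windows that are closely alike, so their matches are not independent. Both had 0 counts in these cells, so the letters were present before genes with and without detected transcripts. The NF-kB motif was found in Serpina3n, at -170 to -161 and -43 to -34, and in Pglyrp1, against 19.6% of the promoters. TTCNNNGAA (STAT), TGANTCA (AP-1), CTTTGA (TCF/LEF, the factors downstream of Wnt signalling) and TATAAA, searched on both strands, were found in none of the 8, against 6.58%, 6.13%, 12.7% and 11.6% of the promoters. A match is a description of the letters and shows no binding, and the absence of a match says only that these letters are not in this window.

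**Figure D3:**
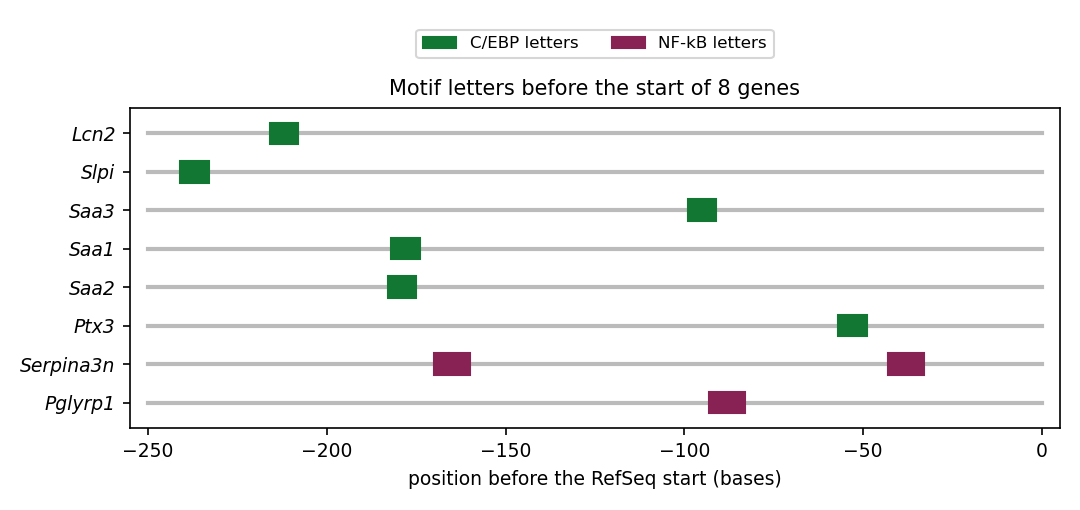
Positions of the C/EBP letters (green) and the NF-kB letters (purple) in the 250 bases before the RefSeq start of 8 genes, with the start at 0. The C/EBP letters appear once in 6 genes, at positions that differ between genes and nearly coincide in Saa1 and Saa2.

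Other acute-phase and antimicrobial genes were then counted from lists of 27, 27 and 10 genes: further acute-phase proteins, further antimicrobial proteins and the serpin A3 genes next to Serpina3n. Together 20 of the 64 were tested, and 20 had 0 counts in every library, among them the liver genes Crp, Apcs, Fgb and Alb. Of the 20 tested, 5 were called higher and 0 lower, against 0.895% called in either direction over all genes. The median of their log2 fold changes was 0.40. With the block, 11 were called, all higher, against 9.42% of all tested genes. These lists were written with earlier results of these data known, so the counts are a description and not a test. C3, the central complement protein, measured 9.75, 14.4 and 15.2 CPM in control and 46.9, 49.2 and 45.1 CPM with DKK1, with no overlap, and rose by 1.83 on the log2 scale (SE 0.13, edgeR adjusted p = 0.00154). Cfb, complement factor B, rose by 1.26 (SE 0.17, adjusted p = 0.0140), and Cp, the copper oxidase ceruloplasmin, by 1.19 (SE 0.12, adjusted p = 0.00555). Cp overlaps Hps3, which is annotated on the other strand, and whether the counting used strand is not given in the sources used here. Cd14, the co-receptor for bacterial lipopolysaccharide, rose by 0.85 (SE 0.08, adjusted p = 0.00280).

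The remaining called gene of these lists was Zc3h12a, at 0.52 (SE 0.08, adjusted p = 0.0272), which encodes an intracellular ribonuclease that degrades inflammatory messenger RNAs and is not itself secreted. When each library was left out in turn, C3, Cp and Cd14 were called in 6 of 6 fits, Cfb in 4 (lost without control replicate 2 and without DKK1 replicate 1) and Zc3h12a in 2 (without control replicate 3 and without DKK1 replicate 3). Cfb and Zc3h12a also lost their calls with both samples numbered 3 left out. Trf (transferrin) and Serping1 (the C1 inhibitor) passed only with the block, at log2 fold changes of 0.23 (edgeR adjusted p = 0.000602) and 0.17 (adjusted p = 0.00176). The same held for Wfdc17, at 0.85 (adjusted p = 0.0472). DESeq2 with the block called Trf and did not call Serping1 or Wfdc17. S100a8 passed in edgeR with the block, at 1.50 (adjusted p = 0.000309), and not without it (adjusted p = 0.0706), but was called without the block by DESeq2, with no low-count filter, without control replicate 3 and with both samples numbered 3 left out. In the serpin A3 cluster, 2 of 10 paralogues were tested, and both were called in edgeR with the block and not without it. Serpina3g was also called without the block by DESeq2, with no low-count filter and with both samples numbered 3 left out, and Serpina3i was not called by DESeq2 with the block. Serpina3g measured 9.62, 10.7 and 6.35 CPM in control and 18.1, 17.6 and 12.1 CPM with DKK1, with the library numbered 3 lowest in both groups as for Serpina3n, and a log2 fold change of 0.83 with the block (adjusted p = 1.23e-05). Serpina3i stood at 0.0886 to 0.354 CPM in control, from 2, 10 and 6.04 counts, and 0.434 to 1.22 CPM with DKK1, from 35, 28 and 10. It passed the low-count filter through its DKK1 libraries, where it was higher, and its call carries that limit. The log2 fold change of Serpina3i was 1.71 with the block (adjusted p = 0.0378).

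Among 34 inducers and regulators of the acute-phase response, 31 were tested and 5 were called, all higher, against 0.895% of all tested genes called in either direction. The median over the 31 was 0.18 on the log2 scale. This list too was written with earlier results of these data known, so its counts are a description and not a test. With the block 20 were called, against 9.42% of all tested genes. Of these, 18 were higher and 2 lower, the 2 lower being Nr3c1, the glucocorticoid receptor (-0.11, adjusted p = 0.0249), and its target Tsc22d3 (-0.33, adjusted p = 0.00756). DESeq2 with the block called 15, all higher, against 3.94% of all genes tested there, and neither of these. The called genes included 3 cytokines of the interleukin-6 family. Il6 itself measured 12.2 ± 1.67 CPM in control and 31.5 ± 1.91 CPM with DKK1 (SD, n = 3 each), with no overlap, and rose by 1.37 on the log2 scale (SE 0.09, edgeR adjusted p = 0.00154). Il11 rose by 1.29 (SE 0.16, adjusted p = 0.00957) and Lif by 0.64 (SE 0.08, adjusted p = 0.0124). Bcl3 and Nfkbiz, nuclear partners of NF-kB that act on secondary response genes such as Lcn2, rose by 0.80 (SE 0.12, adjusted p = 0.0281) and 0.43 (SE 0.07, adjusted p = 0.0276). When each library was left out in turn, Il6 was called in 6 of 6 fits, Lif in 5, Il11 in 4, Bcl3 in 2 (without control replicate 2 and without DKK1 replicate 3) and Nfkbiz in 1 (without DKK1 replicate 3). Lif lost its call without control replicate 2, and Il11 without control replicate 2 and without DKK1 replicate 1. Bcl3 also lost its call with both samples numbered 3 left out.

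Cebpb and Cebpd, which encode C/EBP factors, Socs3, which encodes a feedback inhibitor of STAT3, and Il1r1 were called in edgeR with the block and not without it. DESeq2 called all 4 without the block, as did edgeR with no low-count filter. Socs3 was also called in edgeR without the block when DKK1 replicate 3 was left out, and with both samples numbered 3 left out. Cebpa, another C/EBP factor, did not pass in either edgeR fit (-0.13 with the block, adjusted p = 0.547). Cebpd had a log2 fold change of 0.48 with the block (adjusted p = 6.61e-07), Cebpb 0.40 (adjusted p = 0.000297) and Socs3 0.58 (adjusted p = 2.73e-05), and Il1r1, the interleukin-1 receptor, 0.29 (adjusted p = 2.73e-05). Cebpa, Cebpb, Cebpd, Bcl3, Stat3 and Il1b each overlap an annotated gene on the opposite strand. The same holds for Selp, Trem1, Csf1r, Mpo and Prtn3, named in other paragraphs. Stat3 did not pass in either fit, at 287 ± 3.13 CPM in control and 296 ± 7.56 CPM with DKK1 (SD, n = 3 each) with a difference of 0.04 on the log2 scale (edgeR adjusted p = 0.769). Tnf was low, at 0.222 to 0.795 CPM in control and 0.403 to 0.651 CPM with DKK1, and did not pass (adjusted p = 0.95). Il1b had 0, 0 and 6 counts in the control libraries and 7, 13 and 13 in the DKK1 libraries, too few to be tested.

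**Figure D4:**
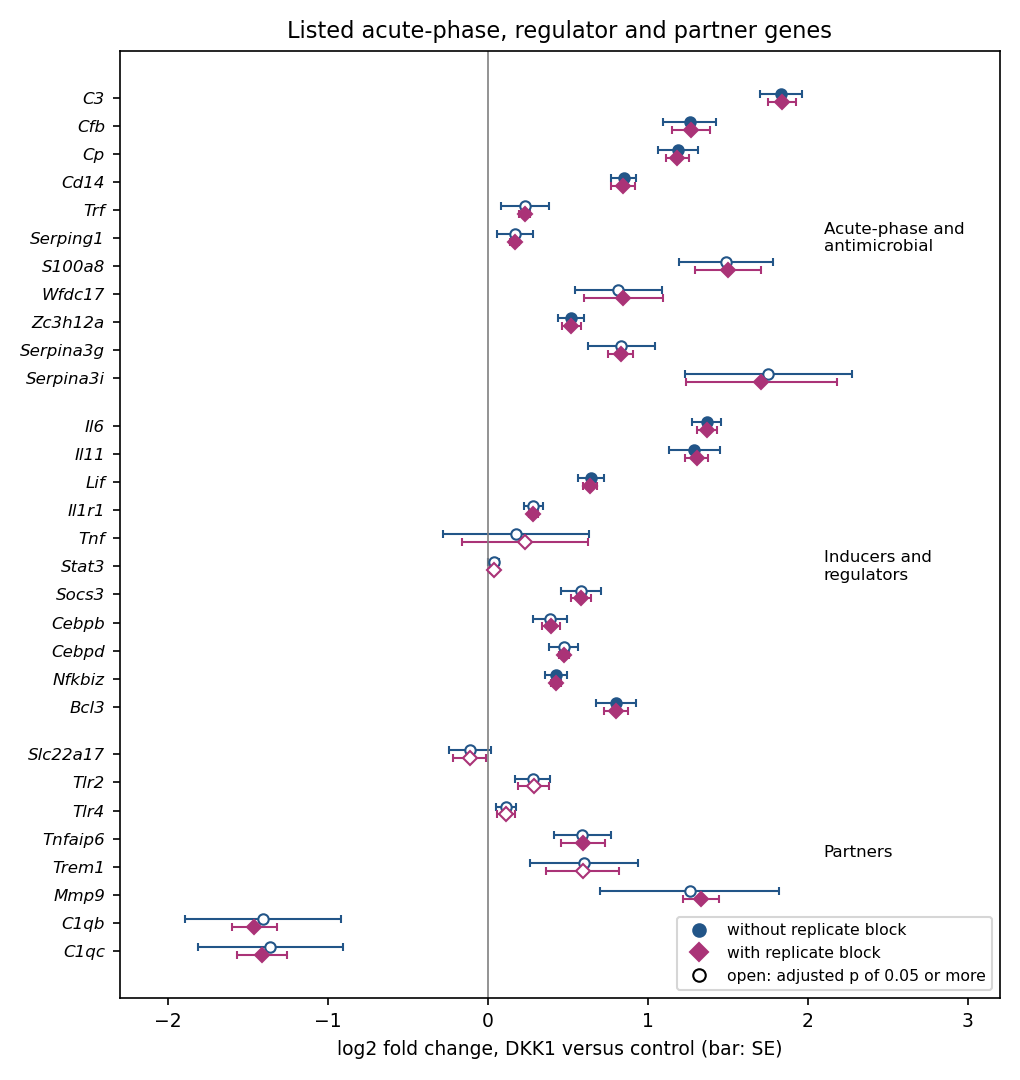
Log2 fold change of DKK1 against control, with its SE, for listed acute-phase, regulator and partner genes, without the replicate block (circles) and with it (diamonds). Filled symbols mark genes called at an adjusted p under 0.05; C3, Il6 and Il11 were called in both fits, and C1qb and C1qc were called lower in the fit with the block.

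Receptors and binding partners of the encoded proteins were counted last, from a list also written with earlier results of these data known. Of 26 genes, 20 were tested, and 0 were called without the block in edgeR, where 9 had an unadjusted p under 0.05; limma-voom called 0 and DESeq2 called 1, Selp. With the block 12 were called, 5 higher and 7 lower, against 9.42% of all tested genes called in either direction. Mmp9, the metalloproteinase that forms a complex with lipocalin-2, measured 4.03, 3.75 and 14.9 CPM in control and 13.5, 10.7 and 30.5 CPM with DKK1. The samples numbered 3 were highest in both groups, and the log2 fold change was 1.33 with the block (edgeR adjusted p = 4.93e-06). Mmp9 was also called higher without the block with both samples numbered 3 left out. The complement genes C1qb and C1qc, whose protein is bound by pentraxin-3, measured 8.88 to 19.5 and 6.82 to 12.9 CPM in control and 2.42 to 9.63 and 1.76 to 6.55 CPM with DKK1; the groups overlapped for C1qb, through DKK1 replicate 3, and not for C1qc. Their log2 fold changes with the block were -1.46 (adjusted p = 1.61e-05) and -1.41 (adjusted p = 5.07e-05). Both were also called lower without the block when no low-count filter was used, without DKK1 replicate 3 and with both samples numbered 3 left out. Of the 10 macrophage markers, Fcgr1 (-1.58, adjusted p = 0.00249), Siglecf (-1.17, adjusted p = 0.0190), Mrc1 (-0.45, adjusted p = 0.000384) and Csf1r (-0.25, adjusted p = 0.0364) were also lower with the block in edgeR, while Marco (1.67, adjusted p = 2.51e-07), Itgam (1.07, adjusted p = 7.23e-08) and Adgre1 (0.54, adjusted p = 0.00179) were higher, and Ptprc, Cd68 and Lyz2 did not pass. The summed level of the markers was 415 to 838 CPM in control and 465 to 887 CPM with DKK1. Most of that sum was Lyz2, at 340 to 696 CPM in control and 370 to 722 CPM with DKK1. The part of the macrophage markers in the C1q differences was not tested. Tnfaip6, a hyaluronan-binding partner of pentraxin-3, passed only in edgeR with the block, at 0.60 (adjusted p = 0.0148), and not in DESeq2 with the block.

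With the block in edgeR Lrp2, another receptor for lipocalin-2, was lower (-0.34, edgeR adjusted p = 0.0224), while Cd36, a scavenger receptor, and Selp, which encodes P-selectin, were higher (0.33, adjusted p = 0.00419, and 0.93, adjusted p = 0.000621). DESeq2 with the block called Selp and did not call Lrp2 or Cd36. Slc22a17, Tlr2, Tlr4 and Trem1 did not pass in either edgeR fit. Slc22a17, a receptor for lipocalin-2, stood at 6.63 ± 0.410 CPM in control and 6.13 ± 0.869 CPM with DKK1 (SD, n = 3 each; edgeR adjusted p = 0.842). Tlr2 and Tlr4, which sense serum amyloid A, had log2 fold changes of 0.28 (SE 0.11, adjusted p = 0.385) and 0.11 (SE 0.06, adjusted p = 0.617), and neither passed with the block (0.0819 and 0.251). Trem1, a receptor for peptidoglycan recognition protein 1, did not pass (0.60, SE 0.34, adjusted p = 0.614). Elane, the neutrophil elastase that Slpi inhibits, had 0 counts, Gzmb had 1 count in all, and Cd163, the receptor for haptoglobin with haemoglobin, had at most 2 counts in any library.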

How the data were processed

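Total RNA of 6 fibroblast samples was sequenced, 3 per group. The authors' deposited table holds expected counts per gene, not scaled between samples. STAR, RSEM, edgeR 4.2.1 and the builds GRCm38 and mm10 are named in the submitters' processing notes, without their order or settings, and the annotation release and strandedness are not given in the sources used here. RSEM divides reads that match several genes among them, so its counts need not be whole and near-identical genes can exchange reads.

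The genes, the lists and the alternatives were chosen with earlier results of these data known. Symbols were found for 45143 of 45706 gene identifiers. Coordinates, overlaps and transcript lengths came from GENCODE M21 on GRCm38, which holds 98.7% of the table's transcript identifiers. Promoter sequences are RefSeq's, build GRCm38.p6.

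Expected counts were rounded to whole numbers. The test was edgeR 4.0.16 under R 4.3.3 (filterByExpr with a minimum count of 10, TMM, glmQLFit and glmQLFTest, two-sided, Benjamini-Hochberg over 14635 genes, threshold 0.05). It was also run on simulated counts with the same dispersion for all genes and no replicate effect in the DKK1 comparison. That run therefore cannot show how either fit behaves where same-numbered libraries vary together. Each SE is approximate and was taken as |log2 fold change| / sqrt(F). CPM are per total of the library, and 3 counts are taken as the floor. PCR reads without molecular identifiers are not independent molecules, so floors and intervals cover counting error only. Alternatives used DESeq2 1.42.0, limma-voom (limma 3.58.1), other scalings and filters, and fewer samples.

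Both groups carry replicate numbers 1 to 3 in the sample titles, whose meaning is not stated. After subtracting the group mean of each gene, libraries with the same number correlated across genes, with r of 0.274, 0.230 and 0.405 for the 3 pairs (genes are not independent replicates), all over the limit of 0.1 used for treating the numbers as pairs, so the blocked fit is given where it changes a call. The genes named beyond the 10 are, from each list, up to 5 called without the block and 3 called only with it, in order of adjusted p, and a fixed set of inducers, factors and partners. Nr3c1, Tsc22d3, Cebpa, S100a9, Ltf, Camp, Mpo, Prtn3, Csf3r, Cxcr2, Selp, Lrp2, Cd36, the genes at 0 counts and the macrophage markers were named after their values were seen.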

Additional observations from a re-analysis of the deposited data

How the results depend on the processing

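The direction of all 6 tested genes was kept in every alternative run: log2 fold changes ranged from 2.82 to 3.65 for Lcn2, 2.39 to 2.95 for Slpi, 2.07 to 3.81 for Saa3, 1.62 to 2.40 for Hp, 0.86 to 1.23 for Ptx3 and 0.38 to 1.01 for Serpina3n. The calls moved more than the sizes, and the cause was not tested. The numbers below are calls over all genes, then of the 10 genes, the inducers and regulators, the other acute-phase and antimicrobial genes, and the receptors and partners. Without the block there were 131, 2, 5, 5 and 0. With the replicate block there were 1379, 6, 20, 11 and 12, and both samples numbered 3 left out with the block gave 1059, 6, 19, 11 and 11. DESeq2 with the block gave 558, 6, 15, 8 and 6. DESeq2 without it gave 289, 4, 12, 7 and 1, and no low-count filter gave 329, 5, 13, 7 and 3. Leaving out both samples numbered 3 without the block gave 149, 4, 6, 5 and 4; the 4 of the 10 genes were Lcn2, Slpi, Saa3 and Hp, against 0.800% of all tested genes called higher. Of the 10 genes, limma-voom called 1, and so did a minimum of 10 counts in every sample, which removed Lcn2 from the test. DESeq2 size factors, library totals and unrounded counts moved no count by over 1.5 times. Leaving out 1 library gave 36 to 139, 1 to 4, 2 to 7, 3 to 6 and 0 to 3 calls. The lowest count over all genes came without control replicate 2 and the highest without DKK1 replicate 3. The replicate-number test called 1889 genes, 724 with DESeq2 and 1005 to 2545 without 1 library; of the 10 genes it called 3 and 2 to 5 without 1 library. With no low-count filter it called 5 of the 8 genes tested, against 11.7% of all genes tested there. Depth limits Saa1, Saa2, Orm1 and Pglyrp1, which were at or near the floor, and the 2 to 9 control counts of Lcn2.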

Other observations

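S100a8, which encodes one chain of the calprotectin pair of neutrophils and macrophages, had 18, 28 and 38 counts in the control libraries and 92, 89 and 93 in the DKK1 libraries, while its partner S100a9 had 0 counts in every control library and 1, 2 and 0 with DKK1.

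Of the 10 macrophage markers, 7 were called with the replicate block in edgeR, in both directions, against 9.42% of all tested genes; Marco and Fcgr1 had adjusted p-values of 0.116 and 0.148 without it. Marco, a scavenger receptor, measured 3.86, 4.74 and 10.6 CPM in control and 16.5, 14.5 and 29.3 CPM with DKK1. Fcgr1, an Fc receptor, measured 1.06, 1.17 and 2.12 CPM in control and 0.314, 0.403 and 0.737 CPM with DKK1. The libraries numbered 3 were the highest for both genes in both groups. Whether these shifts have a part in the levels of the secreted genes was not tested.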
